A study of Canis lupus familiaris with 10 samples.

Results

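The genes described here carry the interferon response and prepare peptides for class I major histocompatibility molecules, and their levels were examined in cultured canine hemangiosarcoma cells. A list of 53 genes was drawn from 6 roles in these pathways, namely receptors and Janus kinases, transcription factors with the coactivator NLRC5, sensors of foreign RNA, interferon effectors, negative regulators, and the machinery that cuts, trims and transports peptides for class I molecules. The array annotation named 47 of the 53, out of 15115 genes that it named with a single-gene probe set. IFNAR2, DDX58, IFIT1, IFIT3, OASL and BST2 were not named and are not analysed here. Each gene is represented by the probe set with the highest mean over the 10 arrays, a choice that does not use breed.

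Interferons are secreted when a cell detects viral nucleic acid or damage. They bind paired receptor chains, which activate Janus kinases, and the kinases phosphorylate STAT proteins. STAT2 joins IRF9 to switch on antiviral effectors such as MX1, ISG15 and the OAS enzymes, while interferon gamma acts largely through IRF1. The same signals raise the immunoproteasome subunits and the TAP transporter, which supply peptides for class I molecules to display to T cells.

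The study asked whether breed leaves a mark on gene expression in hemangiosarcoma, a malignant tumor of cells that form blood vessels. RNA came from primary cultures of splenic tumors, 1 array per dog, at the earliest passages that had been frozen, and the labels name no treatment. The Golden Retrievers were 6 dogs (ChadG4, ChadG6, ChadG8, Frog, Journey and Tucker), and the 3 non-Golden Retrievers were ChadP9 (labelled Portugese Water Dog), Dal4 (labelled Dalmation) and Joey, a Rottweiler by its title. DD1, a mix of Golden Retriever with another breed, was labelled F1 in the study and was left out of the breed test. ChadG6, Frog and Journey were female and all other dogs male, and Frog and Journey were distant relatives. Values are log2 signals, so that a difference of 1 is a 2-fold difference, and every SD is a spread between dogs that includes culture and array. Signals of different genes come from different probes and are not set against each other.

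Low signals were set apart by a filter. The cut was each array's 40th percentile, a signal of 5.02 to 5.16, and a probe set was tested if it exceeded the cut in 3 or more of the 9 purebred dogs. In all, 26787 probe sets and 35 of the 47 members did. Dal4 stood apart most, as the highest or lowest dog for 37.3% of the tested probe sets, followed by ChadG4 (28.4%), Tucker (26.7%) and Joey (23.0%). Markers of the labelled cell type were mixed. Of 10 endothelial markers, KDR (6.51 to 8.25), CLDN5 (5.60 to 6.30), TIE1 (5.06 to 5.72) and CDH5 (5.15 to 5.41) were above the cut in all 10 dogs and ERG in 9. The signals of TIE1 and CDH5 were close to the cut. PECAM1, VWF, TEK, EMCN and ESAM did not pass the filter, and 4 of these 5 were above the cut in 0 dogs. The mean signal of the 10 endothelial markers ran from 5.07 to 5.33 in the Golden Retrievers and from 4.92 to 5.39 in the non-Golden Retrievers. Of 15 leukocyte markers, 7 passed the filter, and the pan-leukocyte gene PTPRC did not. Their mean signal ran from 4.95 to 5.39 in the Golden Retrievers and from 4.87 to 5.27 in the non-Golden Retrievers. All 10 fibroblast and smooth muscle markers passed. Their mean signal was lowest in Dal4 (9.71) and ChadG4 (9.84), against 10.5 to 11.4 in the other dogs, but single genes differed: ACTA2 was 6.39 in ChadG4 and 9.73 in Dal4 against 12.69 or more elsewhere, and LUM was 4.40 in Dal4, while ChadG4 had the second highest DCN, LUM and COL1A2 and Dal4 the highest THY1. In bulk RNA, fewer cells of a type and less RNA per cell cannot be told apart.

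The members split by role in whether a signal could be seen at all. Each of the 6 named receptors and kinases was above the cut in all 10 dogs, and so were 9 of the 10 class I peptide processing genes. Of the 18 named interferon effectors, 11 passed the filter, 8 were above the cut in all 10 dogs and 5 in none. The negative regulators USP18, SOCS1 and SOCS3, which interferon and cytokine signals induce as a feedback, did not pass. IRF7 (3.84 to 4.49 over the 10 dogs), which amplifies type I interferon production, and IRF8 (4.59 to 4.91), known mainly from blood cells, were above the cut in 0 dogs. Among the effectors, MX2, ISG20, IFIT2, XAF1 and HERC5 were likewise above it in 0 dogs, at signals between 2.86 and 4.87. RSAD2, the antiviral enzyme viperin, reached 5.21 in ChadG6 and was above the cut in that 1 dog alone. A low signal can be a low transcript or a poor probe, and these were not told apart.

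**Figure D1:**
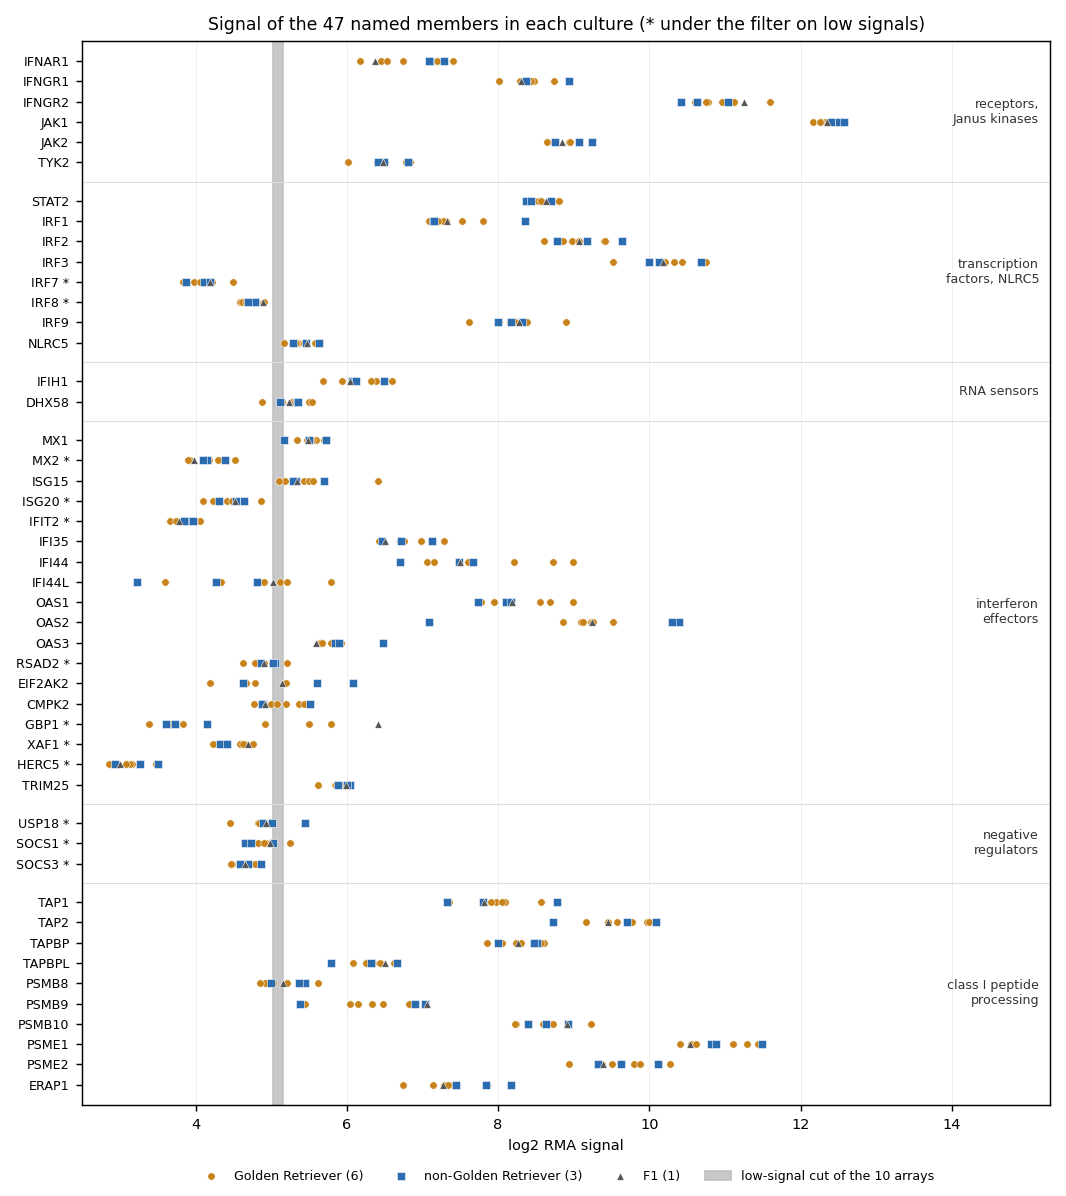
Log2 RMA signal of each of the 47 named members (rows, by role) in each of the 10 cultures, with circles for Golden Retrievers, squares for non-Golden Retrievers and a triangle for the F1 dog; the grey band spans the low-signal cuts of the arrays, 5.02 to 5.16. Receptors, kinases and most class I processing genes lie to the right of the band in all dogs, many effectors and all negative regulators lie near or left of it, and positions of different genes are not comparable because their probes differ.

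In spread the members were like the array as a whole. The median range over the 10 dogs was 1.02 for the 35 tested members and 1.06 for all tested probe sets, and the median SD was 0.32 and 0.33. A range of 2 or more was seen in 3 members, OAS2, IFI44L and IFI44 (8.57% of 35), against 15.0% of all tested probe sets. All 3 are effectors. Without Dal4 only IFI44 and IFI44L kept a range of 2 or more, against 11.9% of all tested probe sets.

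Among receptors and kinases, IFNAR1, a chain of the type I interferon receptor, had the widest range. Golden Retriever signals ran from 6.17 in ChadG8 to 7.40 in ChadG4 with a median of 6.64, ChadP9 and Joey were both at 7.09, Dal4 was at 7.28 and DD1 at 6.37. The 3 non-Golden Retrievers were close together and lay within the range of the Golden Retrievers (difference −0.41 ± 0.26 SE, limma adjusted p = 0.80). IFNGR2, a chain of the interferon gamma receptor, ran from 10.60 in ChadG6 to 11.59 in Tucker with a median of 10.87 in the Golden Retrievers, and was 10.63 in ChadP9, 10.42 in Dal4, 11.04 in Joey and 11.25 in DD1. Its partner IFNGR1 ran the other way in these dogs, from 8.01 in Tucker to 8.74 in ChadG4 with a median of 8.40, and was 8.37 in ChadP9 and in Joey, 8.94 in Dal4 and 8.30 in DD1. With the chosen probe sets Tucker had the highest IFNGR2 and the lowest IFNGR1, and Dal4 the reverse. The correlation of the 2 chains over the 10 dogs was r = −0.76, singled out after the values were seen. A weak probe set assigned to IFNGR2 had r = −0.0029 with the chosen one, against 0.69 and 0.81 for the other pair of its probe sets. That pair was highest in Journey (10.45) and in DD1 (10.51), with Tucker at 10.32 and 10.35, and both were lowest in Dal4.

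JAK1, the kinase shared by both interferon receptor types, had a range of 0.41 with the chosen probe set and 1.07 to 1.41 with its 4 other probe sets, all lowest in Tucker. The Golden Retrievers ran from 12.16 in ChadG8 to 12.44 in ChadG6 with a median of 12.26, and ChadP9, Dal4 and Joey were at 12.40, 12.51 and 12.57, with DD1 at 12.34. ChadG6 alone among the Golden Retrievers exceeded the lowest non-Golden Retriever. JAK1 had the smallest unadjusted p of its role, and the difference of −0.21 ± 0.12 SE had a limma adjusted p of 0.78 (exact permutation test, two-sided, p = 0.024, 6 dogs against 3). TYK2, the kinase docked on the type I receptor, ran from 6.02 in Tucker to 6.83 in ChadG4.

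STAT2 and IRF9, which belong to the transcription complex of type I interferon, were above the cut in all dogs. IRF9 was 7.62 in ChadG4, the lowest dog, and 8.89 in Tucker, the highest, with a Golden Retriever median of 8.19, and was 8.16 in ChadP9, 8.00 in Dal4, 8.31 in Joey and 8.27 in DD1. The 2 extreme dogs were both Golden Retrievers, and the other 8 dogs spanned 8.00 to 8.38. STAT2 ran from 8.52 in ChadG4 to 8.81 in Tucker with a median of 8.62 in the Golden Retrievers and was 8.70 in ChadP9, 8.37 in Dal4, 8.43 in Joey and 8.64 in DD1. This order depended on the probe set. The 3 other STAT2 probe sets that passed were highest in ChadG4 and lowest in Tucker or Journey, ranged over 1.24 to 1.28 against 0.45 for the chosen one, and correlated with it at r = −0.46 to −0.84. STAT2 and IRF9 had r = 0.61 over the 10 dogs with the chosen probe sets (permutation test, adjusted p = 0.19 over 13 pairs). With both genes taken as means over their passing probe sets, 4 of them for STAT2, r was −0.86 (permutation test, adjusted p = 0.017). No direction is therefore given for STAT2.

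IRF1, the main transcription factor downstream of interferon gamma, stood out in 1 dog. Golden Retriever signals ran from 7.09 in Tucker to 7.80 in ChadG4 with a median of 7.29, ChadP9 and Dal4 were at 7.14 and 7.15, DD1 was at 7.32 and Joey at 8.36. Joey and then ChadG4 were the high dogs, and the other IRF1 probe sets correlated with the chosen one at r = 0.91 and 0.94. The breed difference was −0.19 ± 0.28 SE (limma adjusted p = 0.93), and without Joey it turned to 0.22. IRF3, which is held inactive in the cytoplasm until a sensor fires, was lowest in ChadG4 at 9.52 and highest in Tucker at 10.75 with a Golden Retriever median of 10.27, and was 10.12 in ChadP9, 10.68 in Dal4, 10.00 in Joey and 10.18 in DD1. NLRC5, the coactivator of class I genes, stayed between 5.18 and 5.63, just above the cut in every dog.

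Of the RNA sensors, IFIH1 (MDA5) was 5.68 in ChadG4 and 6.60 in Journey, the lowest and highest dogs, with a Golden Retriever median of 6.21, and was 6.07 in ChadP9, 6.12 in Dal4, 6.49 in Joey and 6.04 in DD1. The groups overlapped throughout. DHX58 (LGP2), its regulator, had the same lowest and highest dog, at 4.88 and 5.54, and the pair had r = 0.89, picked out as the highest among the 595 pairs of tested members.

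OAS2, which makes the second messenger that activates RNase L, had the widest range of any tested member, 3.30. The Golden Retrievers lay between 8.86 in ChadG6 and 9.52 in Frog with a median of 9.18, and DD1 was at 9.24. ChadP9 and Joey were at 10.39 and 10.30, and Dal4 at 7.09. The 3 non-Golden Retrievers thus lay on both sides of a tight Golden Retriever group, with an SD of 1.88 (n = 3) against 0.22 (n = 6). The mean difference was −0.08 ± 0.63 SE (limma adjusted p = 0.99). OAS2 had 1 probe set, so no second one could be compared. Its neighbors in the dog assembly UU_Cfam_GSD_1.0 did not follow the same order: OAS1 was highest in ChadG4 at 8.99 and lowest in Dal4 at 7.73, and OAS3 was highest in Joey at 6.48 and lowest in DD1 at 5.59. OAS1 and OAS2 had r = 0.25 (permutation test, adjusted p = 0.80).

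IFI44 and IFI44L are adjacent genes of one family that type I interferon induces in many cell types. IFI44 was highest in Frog at 8.99 and ChadG8 at 8.73 and lowest among the Golden Retrievers in ChadG6 at 7.06, with a median of 7.91, and was 7.67 in ChadP9, 7.48 in Dal4, 6.70 in Joey and 7.50 in DD1. IFI44L ran from 3.59 in Frog to 5.79 in ChadG4 with a median of 5.01 in the Golden Retrievers and was 4.81 in ChadP9, 3.22 in Dal4, 4.27 in Joey and 5.02 in DD1. Frog was therefore the highest dog for one and the second lowest for the other, and the pair had r = −0.18 (permutation test, adjusted p = 0.82). IFI44L passed the filter only through ChadG4, ChadG6 and ChadG8, all Golden Retrievers, and every non-Golden Retriever was under the cut. Breed differences were 0.67 ± 0.46 SE for IFI44 and 0.72 ± 0.48 SE for IFI44L (limma adjusted p = 0.81 for each). The filter kept IFI44L through the group where it was higher, so its difference is not support for a breed effect.

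EIF2AK2 (PKR), the kinase that halts translation on double-stranded RNA, had the smallest unadjusted p of all 35 members. Golden Retriever signals ran from 4.19 in ChadG8 to 5.19 in ChadG4 with a median of 4.67, and ChadP9 was at 4.62, Dal4 at 6.08, Joey at 5.60 and DD1 at 5.15. Dal4 and Joey were high and ChadP9 lay inside the Golden Retriever range. EIF2AK2 was above the cut in ChadG4, Dal4 and Joey among the purebred dogs, so it passed the filter by the smallest number allowed. The difference was −0.75 ± 0.31 SE (95% interval −1.45 to −0.05, limma adjusted p = 0.77, exact permutation p = 0.060), and without Dal4 it was −0.43.

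MX1 and ISG15, both classical read-outs of type I interferon, were near the cut in most dogs. MX1 ran from 5.34 in ChadG4 to 5.70 in ChadG8 with a median of 5.52 in the Golden Retrievers and was 5.72 in ChadP9, 5.17 in Dal4, 5.50 in Joey and 5.49 in DD1. ISG15, a ubiquitin-like protein, ran from 5.11 in Frog to 6.41 in ChadG4 with a median of 5.47 and was 5.70 in ChadP9, 5.33 in Dal4, 5.28 in Joey and 5.35 in DD1. ChadG4 was the high dog for ISG15 and the lowest Golden Retriever for MX1. Over the 10 dogs the 2 genes had r = −0.26 (permutation test, adjusted p = 0.77), and without ChadP9 and Dal4 r = −0.81. GBP1, a guanylate-binding protein that interferon gamma induces, did not pass the filter but reached 6.41 in DD1, 5.79 in Frog and 5.50 in Journey, against 3.38 to 4.91 in the other 7 dogs. Its other probe sets, also under the filter, were highest in DD1 too, at 6.45 and 6.84. In both, ChadG8 (4.74 and 5.06) exceeded Frog (4.62 and 4.90) and Journey (4.62 and 4.77), so only DD1 was high throughout. The T cell marker CD3D, under the filter as well, was high in DD1, Frog and Journey, at 7.45, 6.34 and 5.29, against 3.41 to 4.65 in the others. The other T cell markers, CD3E and CD2, were highest in ChadG8, and PTPRC was above the cut in 0 dogs. The part of these in the GBP1 values was not tested.

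All 10 class I peptide processing genes passed the filter, but their dogs were ordered differently from gene to gene. TAP1, a subunit of the peptide transporter, ran from 7.36 in Frog to 8.57 in Tucker with a median of 8.01 in the Golden Retrievers, and was 7.33 in ChadP9, 7.80 in Dal4, 8.78 in Joey and 7.82 in DD1. Joey and Tucker were the high dogs, ChadP9 and Frog the low ones, and each breed group held both. The breed difference was 0.02 ± 0.33 SE (95% interval −0.72 to 0.76, limma adjusted p = 0.99). TAP2, the other subunit, was also highest in Joey with the chosen probe set, at 10.09, and lowest in Dal4, at 8.72. Its other probe sets had r = 0.97 and 0.39 with the chosen one. They were highest in Tucker (7.79, Joey 7.77) and in DD1 (8.15, Joey 8.08), and both were lowest in Dal4.

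PSMB9 (LMP2), an immunoproteasome subunit whose gene lies next to TAP1 in the dog assembly, followed a different order. It was lowest in Joey at 5.38 and ChadG4 at 5.44 and highest in DD1 at 7.06 and Dal4 at 7.03. Among the Golden Retrievers the median was 6.24 and the maximum 6.82 in Tucker, and ChadP9 was at 6.90. Joey thus had the highest TAP1 with the chosen probe set and the lowest PSMB9, and the pair had r = −0.42 (permutation test, adjusted p = 0.48). PSMB9 had a single probe set, so its order could not be compared with that of another. The breed difference of PSMB9 was −0.23 ± 0.40 SE (limma adjusted p = 0.94), and without Joey it was −0.76. PSMB8 (LMP7), which lies on the other side of TAP1, was above the cut in 6 of the 10 dogs, between 4.86 and 5.61, and had r = −0.06 with PSMB9 (permutation test, adjusted p = 0.87).

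ERAP1, which trims peptides in the endoplasmic reticulum, had the smallest unadjusted p of its role. It ran from 6.74 in Journey to 7.85 in ChadG6 with a median of 7.31 in the Golden Retrievers, and was 7.45 in ChadP9, 7.84 in Dal4, 8.18 in Joey and 7.27 in DD1. The non-Golden Retrievers were in the upper part of the Golden Retriever range or above it. The difference was −0.53 ± 0.24 SE (95% interval −1.08 to 0.02, limma adjusted p = 0.77, exact permutation p = 0.083). The remaining class I processing genes each had a range of 0.76 to 1.37.

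**Figure D2:**
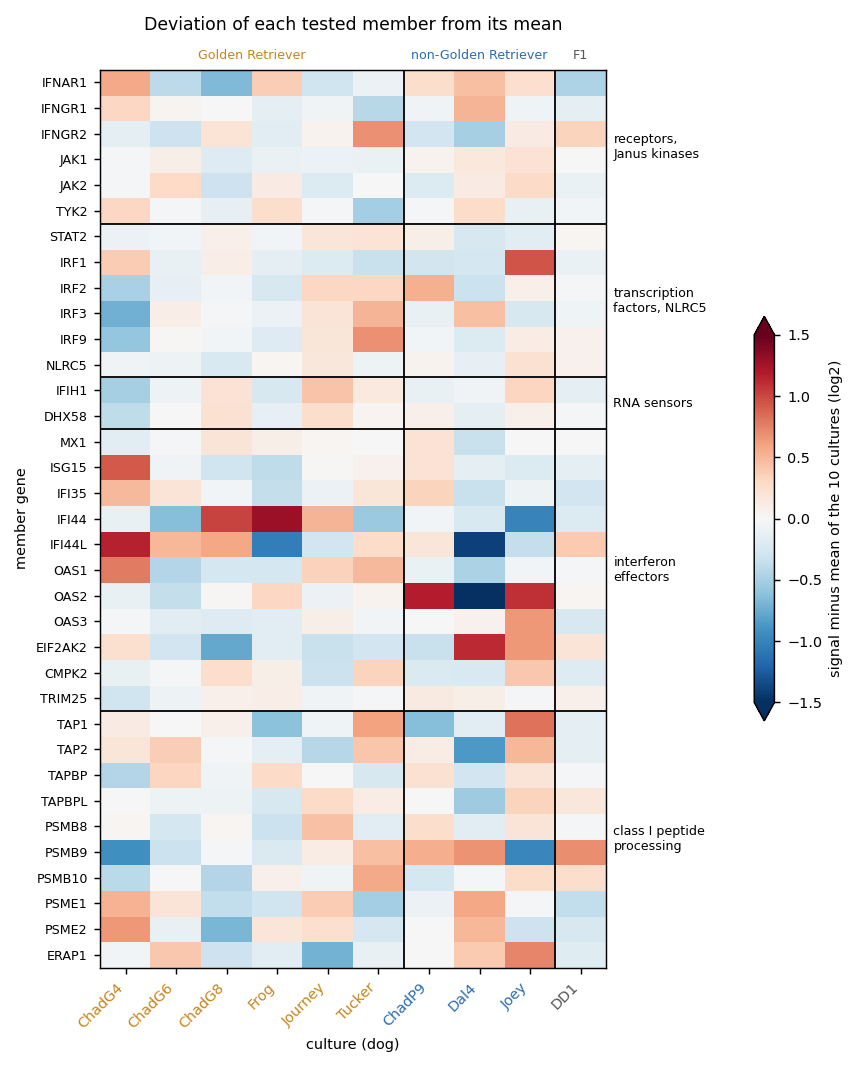
Signal of each of the 35 tested members (rows, by role) minus its mean over the 10 cultures (columns, by breed group), in log2 units; the colors are capped at 1.5 in either direction, beyond which lies OAS2 in Dal4. Apart from the pair of RNA sensors, no dog is red or blue throughout a role: ChadG4 is high for ISG15, IFI44L and OAS1 and low for IRF3, IRF9 and PSMB9, and Joey is high for IRF1, TAP1 and ERAP1 and low for PSMB9 and IFI44.

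No dog was high or low across the module. The median deviation of the 11 tested effectors from their means over the 10 dogs ran from −0.22 in Dal4 to 0.13 in ChadP9, and that of the 10 class I processing genes from −0.19 in Frog to 0.23 in Joey. Among the tested members, ChadG4 was the highest dog for 7 and the lowest for 7. These 14 make 40% of the 35, against 28.4% of all tested probe sets. Joey was the highest dog for 9 members (25.7%), against 11.9% of all tested probe sets, and 4 of the 9 were class I processing genes: TAP1, TAP2, TAPBPL and ERAP1. For TAP1 and TAP2 this rank depended on the probe set. One other TAP1 probe set was highest in Tucker (8.161, Joey 8.158), and the other TAP2 probe sets were highest in Tucker and in DD1. ChadG6 and DD1 were each an extreme for 2 members.

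Correlations among the members were spread much as those among all tested genes. Over the 10 dogs the median correlation was 0.03 for the 595 pairs of tested members and 0.0035 for all pairs of the 11108 tested genes, and r exceeded 0.6 in 7.23% and 7.39% of pairs. The pairs share dogs and genes, so these shares are descriptions. Within the effectors the median was 0.0056 and within class I processing −0.02. It was 0.27 among the 6 tested transcription factors and NLRC5, where 4 of 15 pairs exceeded 0.6, and 0.20 among the 6 receptors and kinases, where 2 of 15 did. Those 4 pairs include STAT2 with IRF2 (0.69) and STAT2 with IRF9 (0.61), which depend on the chosen STAT2 probe set. The other STAT2 probe sets that passed had r = −0.83 to −0.87 with IRF9, so the figures for that role carry the same limit.

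Of 18 gene pairs listed for a shared complex, neighborhood or regulator, 13 could be correlated, and 3 passed an adjusted p of 0.05 by Pearson's r over the 10 dogs. By Spearman's rho 0 of the 13 did, the smallest adjusted p being 0.12. PSME1 and PSME2, the subunits of the PA28 proteasome activator, had r = 0.78 and rho = 0.73 (permutation p = 0.0087 and 0.021, adjusted p = 0.041 and 0.12). Both were high in ChadG4, at 11.43 and 10.28, and in Dal4, at 11.49 and 10.11, and r was 0.53 without these dogs (exact permutation p = 0.18), so the result over the 10 dogs rests on them. Within the 6 Golden Retrievers, which include ChadG4, r was 0.74 (exact permutation p = 0.093), and with gene means over probe sets 0.70. In the same dogs the mean signal of the 16 genes of the constitutive proteasome and its other activators was also highest, at 11.75 in ChadG4 and 11.74 in Dal4 against 11.13 to 11.55 elsewhere, and the mean of the fibroblast and smooth muscle markers was lowest. The part of these in the PSME1 and PSME2 result was not tested.

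B2M, the invariant light chain of class I molecules, and TAP1 had r = 0.77 and rho = 0.78 (permutation p = 0.0095 and 0.010, adjusted p = 0.041 and 0.12). B2M was highest in Tucker at 13.18 and Joey at 13.17, the dogs with the highest TAP1, and lowest in Dal4 at 11.91. The correlation was 0.87 without Tucker and Dal4, the dogs farthest from the B2M median (exact permutation p = 0.0051), and 0.86 within the 6 Golden Retrievers (exact permutation p = 0.037). It was 0.64 with gene means over probe sets (adjusted p = 0.15). IRF1 and PSMB9, a regulator and its textbook target, ran in opposite directions, with r = −0.82 and rho = −0.64 (permutation p = 0.0024 and 0.054, adjusted p = 0.031 and 0.17). Joey and ChadG4, with the highest IRF1, had the lowest PSMB9, and without them r was −0.47 (exact permutation p = 0.24), so the result over the 10 dogs rests on those 2. Within the 6 Golden Retrievers, which include ChadG4 but not Joey, r was −0.86 (exact permutation p = 0.035).

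**Figure D3:**
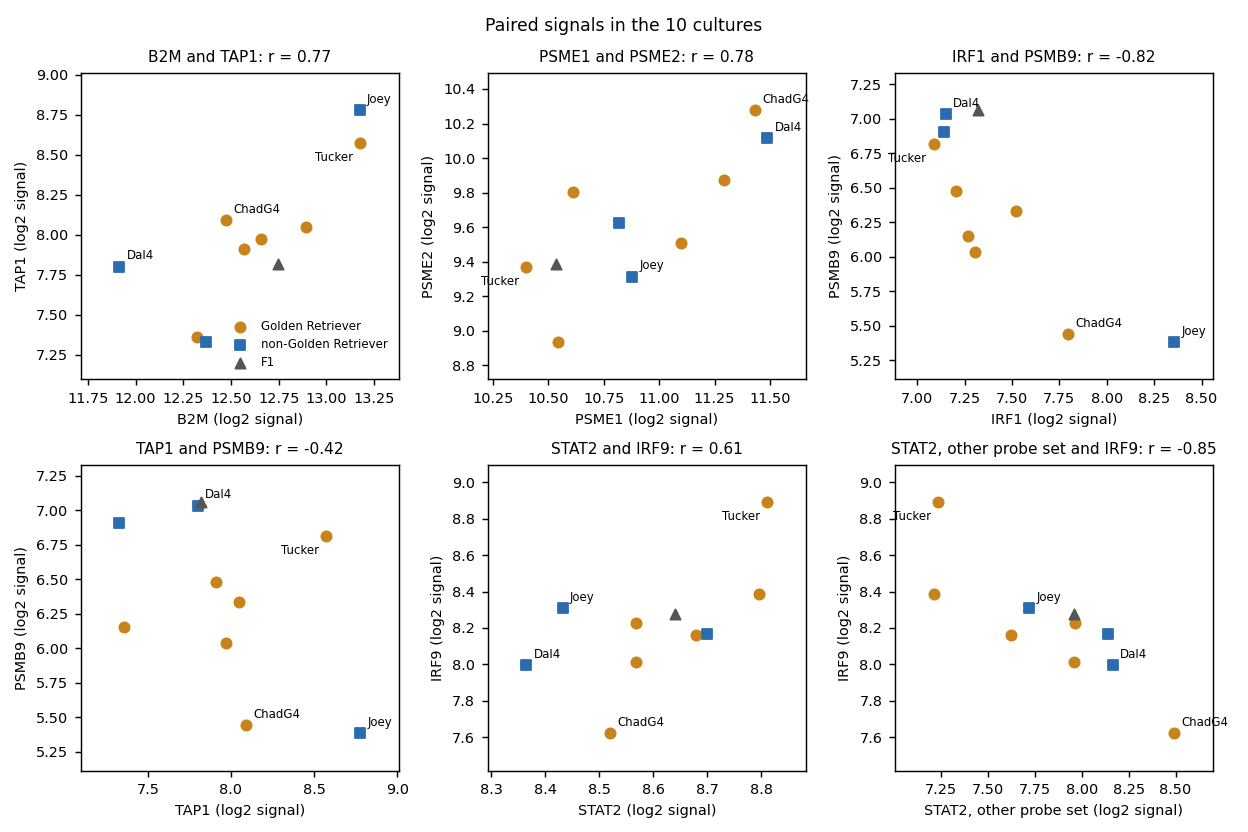
Log2 signals of gene pairs in the 10 cultures, 1 point per dog, with circles for Golden Retrievers, squares for non-Golden Retrievers and a triangle for the F1 dog. B2M and TAP1 ascend together (r = 0.77), IRF1 and PSMB9 run in opposite directions (r = −0.82 over the 10 dogs, −0.47 without Joey and ChadG4, −0.86 within the Golden Retrievers), and the sign of STAT2 against IRF9 changes from r = 0.61 to r = −0.85 when the STAT2 probe set with the next highest mean is used.

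The breed comparison called 0 of the 35 tested members at an adjusted p under 0.05, where limma called 0.00373% of all tested probe sets, which is 1 probe set. The methods' t-test also called 0 members after adjustment. Before it, at p under 0.05, it called 1 member (JAK1) of 35, against 5.65% of all tested probe sets. At an unadjusted p under 0.05, limma called 1 member (EIF2AK2), or 2.86%, against 6.33% of all tested probe sets. The 2 groups did not overlap for 0 members, against 2.46% of all tested probe sets. Signals were lower in the Golden Retrievers for 21 members and higher for 14, as against 14162 and 12625 of all tested probe sets, and the median difference was −0.06 for the members and −0.02 for all. By role the median difference was −0.13 for receptors and kinases, −0.07 for transcription factors and NLRC5, 0.06 for effectors and −0.06 for class I processing.

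Exact permutation tests on single members could reach no p below 0.012 with 84 splits of 6 dogs against 3. Of the 35 members, 2 had an exact p under 0.05, JAK1 and OAS3 (0.036), with no correction for the number of members. The share of all tested probe sets under 0.05 by this test was not computed, so the count is not read as a result about the members. The 95% interval of the difference lay within 1 log2 unit of 0 in either direction for 28 of the 35 members. The widest intervals belonged to OAS2 (−1.50 to 1.34), IFI44L (−0.37 to 1.81) and IFI44 (−0.37 to 1.71), so that a difference of more than 2-fold lies inside them.

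**Figure D4:**
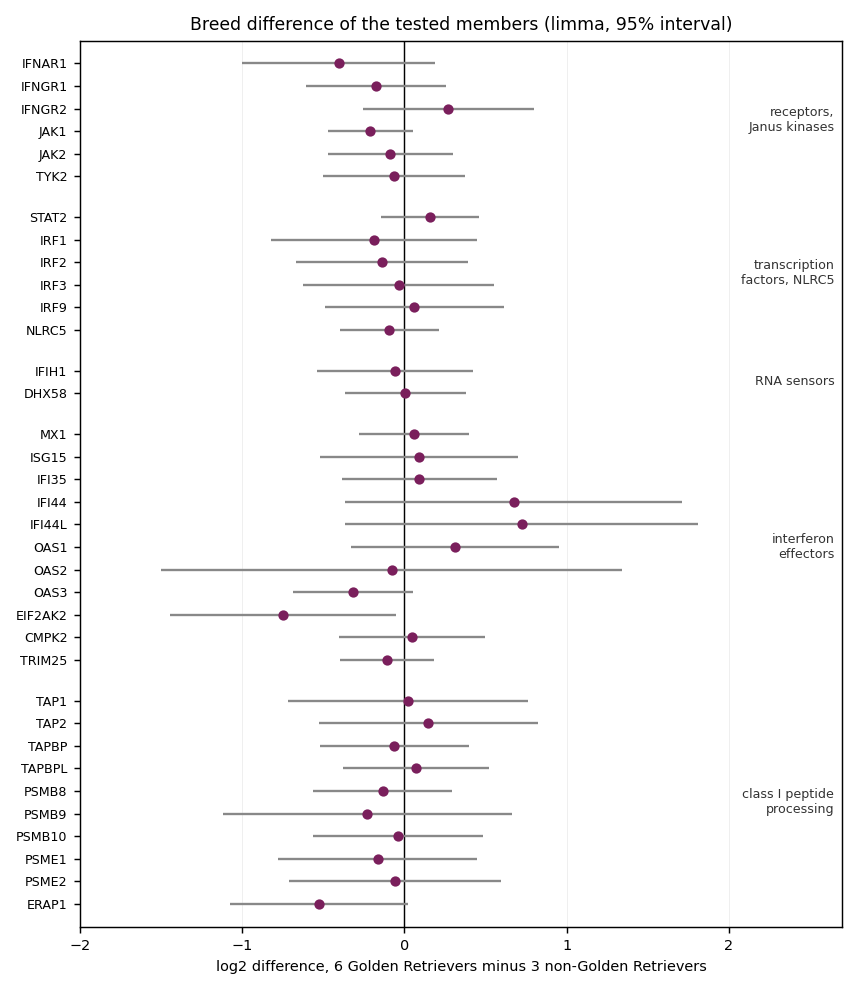
Difference in mean log2 signal of the 35 tested members, 6 Golden Retrievers minus 3 non-Golden Retrievers, with limma's 95% interval as a bar; the vertical line marks 0. Every interval but that of EIF2AK2 (−1.45 to −0.05) crosses 0, and no member passed after adjustment over all probe sets.

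In other genes of the pathways, limma called 0 genes at an adjusted p under 0.05 in each of 5 further lists, and 6 of their 63 tested genes had an unadjusted p under 0.05, where 6.33% of all tested probe sets did. The 2 groups did not overlap for 4 of the 63 (IDO1, TRAF3, PSMF1 and PIAS2), against 2.46% of all tested probe sets. For PSMF1 the margin was very small, with ChadG6, the highest Golden Retriever, at 8.5155 and ChadP9, the lowest non-Golden Retriever, at 8.5158. IDO1 passed the filter through Golden Retrievers alone. ChadP9 (4.88), Dal4 (4.67) and Joey (4.97) were under their cuts, and the lowest Golden Retriever was at 5.02. Its non-overlap is therefore not read as a breed difference. The interferon genes IFNB1, IFNG and IFNK were under the filter. Of 28 named other interferon-induced genes, 22 were tested, with a median difference of −0.09. IDO1, which degrades tryptophan, had the widest range, 4.81: ChadG8 was at 9.47 and the other 9 dogs between 4.67 and 5.60. PARP14, an ADP-ribosyltransferase with the smallest unadjusted p of this list, was 4.07 to 5.20 in the Golden Retrievers, 4.55 in ChadP9, 5.22 in Dal4 and 6.16 in Joey (−0.85 ± 0.35 SE, limma adjusted p = 0.77).

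Among 8 tested genes of interferon induction the median difference was −0.12. TLR3, a sensor of double-stranded RNA, had the widest range, from 5.57 in ChadG4 to 7.21 in ChadG6. TRAF3, an adaptor of the sensors, was 6.15 to 6.65 in the Golden Retrievers and 6.67, 7.27 and 6.65 in ChadP9, Dal4 and Joey, so that the groups did not overlap, by a margin too small to show at 2 decimals (−0.39 ± 0.18 SE, limma adjusted p = 0.77, exact permutation p = 0.012, the smallest possible). The 16 genes of the constitutive proteasome and its activators had a median difference of −0.07, with PSMA6 widest in range (10.59 to 11.88) and the inhibitor PSMF1 smallest in unadjusted p (−0.43 ± 0.17 SE, limma adjusted p = 0.77). For the 8 class I folding genes the median was 0.08. The peptide-trimming ERAP2 ranged most, from 5.58 in Joey to 7.73 in ChadG6, and the chaperone CANX had the smallest unadjusted p (0.23 ± 0.21 SE, limma adjusted p = 0.86).

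All 9 tested brakes on interferon signaling had a lower mean in the Golden Retrievers, with a median difference of −0.26, where 14162 of all 26787 tested probe sets had a lower mean. PIAS2, an inhibitor of STAT signaling, had groups that did not overlap, with means of 7.10 and 7.42 (−0.31 ± 0.13 SE, limma adjusted p = 0.77, exact permutation p = 0.012, the smallest possible). PTPN11 (SHP2), a phosphatase, was 6.51 to 7.54 in the Golden Retrievers with a median of 6.62, against 7.50 in ChadP9, 7.80 in Dal4 and 7.56 in Joey. Frog alone among the Golden Retrievers reached the non-Golden Retriever range (−0.84 ± 0.23 SE, limma adjusted p = 0.77, exact permutation p = 0.024). SOCS2, which damps cytokine signaling, had the widest range of the list, from 5.97 in Journey to 9.08 in ChadG4.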

How the data were processed

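One Canine_2 array per dog measured RNA of cultured hemangiosarcoma cells from 10 dogs. The authors made the deposited log2 signals with RMA (the submitters' notes name RMA and affy, with no versions), and those values were used as deposited. The member genes, roles, lists and pairs were chosen with earlier results of these data known.

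Of the probe sets, 111 controls were left out. A probe set was kept for testing where its signal exceeded that array's 40th percentile in 3 or more of the 9 purebred dogs, which left 26787. The platform annotation gave 1 gene symbol for 29254 probe sets, several for 439 (not named) and none here for 13231. Golden Retrievers were compared with non-Golden Retrievers, 6 against 3, in limma 3.58.1 (R 4.3.3), two-sided, with Benjamini-Hochberg adjustment over all 26787 probe sets. Group labels come from sample titles, and Joey's breed field repeats its name. Single members were also tested by exact permutation. Gene pairs were tested with 100000 permutations (exactly where fewer than 10 dogs entered), adjusted over 13 pairs; 5 of 18 listed pairs held a gene not named or under the filter. The limma script was tested on simulated data.

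Members named with every dog's value were TAP1, PSMB9, IRF1, STAT2, IRF9, MX1 and ISG15, the 3 widest in range per role (1 in roles of 3 genes), and the smallest unadjusted p per role. The p-values of the breed tests weigh a difference of group means against the variation between dogs. Those of the gene pairs test a correlation over dogs by permutation. The number of arrays limits the precision. Alternatives were the methods' t-test, no filter, the more variable probe sets, arrays centred on medians, the F1 dog in either group, males only, gene means over probe sets and leaving out each dog; ranges without Dal4 were added after seeing the data. Gene neighborhoods come from the RefSeq annotation of UU_Cfam_GSD_1.0, and its coordinates are not used here.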

Additional observations from a re-analysis of the deposited data

Results flagged for a closer look

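Within the 6 Golden Retrievers, the gap between an extreme dog and its nearest neighbor, divided by the range, exceeded Dixon's critical value of 0.625 for 3 of 48 quantities searched (35 members, 11 other pathway genes and the median deviations of the effectors and of the class I processing genes); chance flags about 1 in 20. ISG15 in ChadG4 had a signal of 6.41, with the next Golden Retriever at 5.56 (gap over range 0.656). IDO1 in ChadG8 had a signal of 9.47, with the next at 5.60 (0.869), and PTPN11 in Frog had 7.54, with the next at 6.84 (0.680).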

How the results depend on the processing

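The count of members past an adjusted p of 0.05 was 0 under all 17 alternatives, and the median difference over the members, over the effectors and over class I processing moved by less than the spread between dogs, although leaving out single dogs gave medians of −0.09 to 0.02, −0.06 to 0.22 and −0.11 to −0.02. The count at an unadjusted p under 0.05 was 1 in the main setting, 3 with the F1 dog as a Golden Retriever (8.34% of all tested), 3 with gene means over probe sets (6.15%), 2 without the filter on low values (5.49%) and 0 among the more variable probe sets, which hold 17 members. Leaving out single dogs gave 0 to 3: 0 without ChadG8, Journey or Tucker, 2 without ChadG4 (7.13%) and 3 without ChadP9 (11.7%). The count of members whose groups did not overlap was 0 in the main setting, 4 with males only (11.1% of all tested probe sets did not overlap there), 1 with gene means (JAK1; 2.53%) and 0 to 3 without single dogs, with 1 without Journey (3.51%), Dal4 (5.0%) or Joey (6.33%), 2 without ChadG6 (2.84%) and 3 without ChadP9 (14.1%). The 4 members with males only include IFI44L, which passed the filter through Golden Retrievers alone. The count of pairs past an adjusted p of 0.05 fell from 3 to 0 within the Golden Retrievers and to 0 without the 2 farthest dogs, where fewer dogs enter.

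Some signs turned, and since no member difference passed after adjustment in any setting, each of these belonged to a difference that had not passed. TAP1 was at −0.0022 with the F1 dog as a Golden Retriever and −0.060 with gene means, and STAT2 at −0.16 with gene means. Without single dogs the differences ran from −0.30 to 0.43 for TAP1 (below 0 without Tucker, ChadP9 or Dal4), −0.76 to 0.067 for PSMB9 (above 0 without ChadP9 or Dal4), −0.39 to 0.22 for IRF1 (above 0 without Joey), −0.076 to 0.18 for IRF9 (below 0 without Tucker or Dal4), −0.087 to 0.19 for MX1 (below 0 without Dal4), −0.084 to 0.22 for ISG15 (below 0 without ChadG4) and −0.14 to 0.075 for IFIH1 (above 0 without ChadG4 or Joey). Within the Golden Retrievers the correlations that turned were TAP1 and PSMB9 (0.33), PSMB8 and PSMB9 (0.11), NLRC5 and TAP1 (−0.35), OAS1 and OAS2 (−0.012) and PSMB6 and PSMB9 (−0.66). NLRC5 and TAP1 also turned without the 2 farthest dogs (−0.38), and STAT2 and IRF9 with gene means (−0.86). The causes were not tested. No paired analysis was possible because the 2 breed groups hold different dogs and their numbers come from accession order. The range of OAS2 fell from 3.30 to 1.53 without Dal4. Signals near the cut limit what can be seen of MX1, ISG15, IFI44L, EIF2AK2 and PSMB8.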
